A study of Mus musculus with 12 samples.

Results

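Interferon-induced antiviral genes and their regulators were followed in liver RNA. With earlier results of these data known, a list of 36 genes was named by symbol from general knowledge of the interferon response. Of these, 34 had a probe on the array, some under an older symbol (Isgf3g for Irf9, D11Lgp2e for Dhx58), and all 34 were tested among 19340 genes; Xaf1 and Dtx3l are not analysed here. The study compared how the livers of male and female mice respond to a glucocorticoid. All 12 animals were adrenalectomized C57BL/6 mice aged 11 weeks, so every group, controls included, lacked the adrenal source of its own corticosterone. The 4 groups held 3 animals each: males given vehicle (phosphate-buffered saline), females given vehicle, males given dexamethasone and females given dexamethasone. Dexamethasone, a synthetic agonist of the glucocorticoid receptor, was injected intraperitoneally at 1 mg/kg, livers were collected after 6 h, and the females were in diestrus. Each animal had its own single-colour Agilent array, loaded with 500 ng of labelled RNA.

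Type I and type III interferons signal through receptor-bound Janus kinases to Stat factors, among them Stat2, which join Irf9 to form the complex ISGF3. That complex binds the interferon-stimulated response element (ISRE) in promoters and switches on a shared program of antiviral genes. Interferon gamma acts mainly through gamma-activated sites (GAS) and induces Irf1. The program includes cytosolic sensors of viral nucleic acid, oligoadenylate synthetases that activate RNase L, effectors that block viral translation, entry or release, and the ubiquitin-like modifier ISG15 with its enzymes. A basal level of these transcripts is kept in uninfected tissue, in liver both by hepatocytes and by resident immune cells. The mouse Ifit genes were described earlier as glucocorticoid-attenuated response genes.

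The 75th percentile of an array's signal, to which all arrays were scaled, was 578 to 1250 intensity units, and 65.7 to 72.2% of spots were well above background. Values below are scaled signals, that is linear intensities after the arrays' 75th percentiles were made equal. Of the 34 members, 32 were well above background on all 12 arrays, and Mx1 and Oas3 were so on all but 1, a male dexamethasone array. The 5 hepatocyte markers with a probe had summed signals of 930000 to 1380000 on the 12 arrays. Arrays lay on 3 slides. Slide 1 carried all 4 groups, slide 2 lacked male dexamethasone and slide 3 lacked female dexamethasone. Position 1 of each slide carried the male vehicle array, and no other group had that position. Position therefore cannot be told apart from the treatment in males or from sex under vehicle. It also enters the difference between the male and female effects.

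After dexamethasone 24 of 34 members fell in males, 0 rose and 10 did not pass (limma, Benjamini-Hochberg adjusted p under 0.05). That is 70.6% lower, against 12.1% lower and 10.4% higher among all 19340 genes. In females 20 fell, 0 rose and 14 did not pass, which is 58.8% lower, against 6.88% lower and 6.79% higher among all genes. The median log2 fold change of the members was −1.06 in males and −0.86 in females, and that of all genes was 0.01 and 0.02. The 20 members that fell in females all fell in males, and 4 further members (Irf1, Oas2, Oas3 and Trim25) passed in males and not in females. Neither sex passed for Irf8, Stat2, Eif2ak2, Parp9, Usp18, Bst2, Ifi35, Ifitm3, Isg20 and Samhd1. Male vehicle and male dexamethasone signals did not overlap for 25 members, and the female groups did not overlap for 26, some of them not past the threshold. The share of all genes without overlap was not computed, so these counts only describe the members.

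Within slides the members' median difference in males was −1.16 on slide 1 and −1.04 on slide 3, with 29 and 30 of 34 members below zero. In females it was −1.20 on slide 1 and −0.84 on slide 2, with 33 and 31 below zero. With slide as a block, 19 members fell in males and 16 in females. The shares of all genes called in this and the following settings are not reported here. With normexp background correction of the raw signals in place of the scanner software's own, 11 fell in males and 9 in females, and without female vehicle array 2, 13 fell in females. Normexp ended the male calls of Ddx58, Dhx58, Irf9, Mx1, Mx2, Ifit2, Ifi44, Oas1a, Oas2, Oas3, Parp12, Trim21 and Trim25. It ended the female calls of Ddx58, Irf7, Irf9, Ifit1, Ifit2, Ifi44, Mx1, Oas1a, Oasl1, Parp12 and Trim21. Under normexp Parp12 went to −0.59 in males and −0.58 in females, Trim21 to −0.73 and −0.42, Oas2 to −0.42 in males and Ddx58 to −0.47 in females. When the local background used by normexp was capped (a setting added after seeing the data), 23 fell in males and 22 in females. The labels call the animals biological replicates. In whole-liver RNA, fewer cells of a type and less RNA per cell cannot be told apart.

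**Figure D1:**
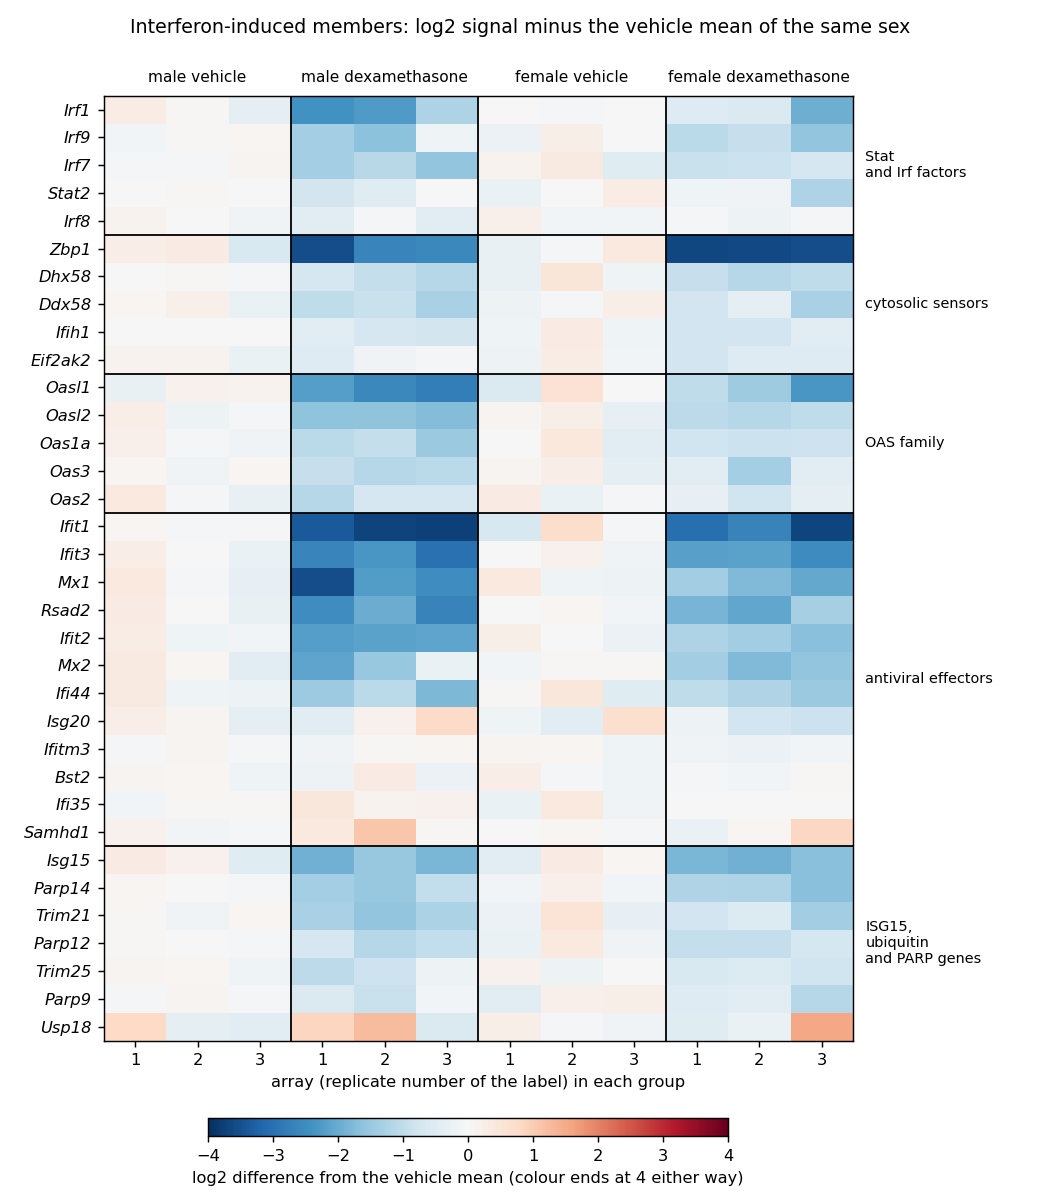
Log2 signal of the 34 members (rows, grouped by role and sorted by mean effect) on each of the 12 arrays (columns), minus the mean of the 3 vehicle arrays of the same sex; blue is lower and red higher. Ifit1, Zbp1 and Ifit3 are dark blue on all 6 dexamethasone arrays, whereas Bst2, Ifitm3 and Ifi35 stay pale, and male and female dexamethasone array 3 depart from the others of their group for several genes.

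The promoters of the members held the ISRE in a larger share than promoters at large. The motif was searched as GAAA, any 2 bases, GAAA, on both strands, in the RefSeq window from 250 bases before to 50 after each annotated start (GRCm38.p6). It occurred in 13 of the 28 members with a window, which is 46.4%, and in 3.99% of 27025 genes. No window was matched for Mx1, Mx2, Oas2, Usp18, Dhx58, Zbp1, Parp9 and Parp14. The 250 bases before the start are shown for 4 genes that fell in both sexes (Ifit1, Ifit3, Rsad2, Isg15) and for 2 with an ISRE that passed in neither (Stat2, Bst2), 5′ to 3′ on the gene's strand, with ISRE matches in capitals.
Ifit1, chr19:34640639-34640888, plus strand: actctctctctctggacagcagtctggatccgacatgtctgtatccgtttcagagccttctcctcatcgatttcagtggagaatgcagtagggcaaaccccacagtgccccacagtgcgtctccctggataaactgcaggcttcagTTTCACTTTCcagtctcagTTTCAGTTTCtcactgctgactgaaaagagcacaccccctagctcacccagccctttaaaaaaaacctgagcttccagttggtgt
Ifit3, chr19:34583279-34583528, plus strand: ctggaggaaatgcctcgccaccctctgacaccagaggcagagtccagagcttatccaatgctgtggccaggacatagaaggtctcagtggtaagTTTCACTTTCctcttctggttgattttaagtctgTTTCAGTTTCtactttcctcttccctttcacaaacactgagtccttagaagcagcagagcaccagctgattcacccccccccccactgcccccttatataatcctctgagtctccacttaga
Rsad2, chr12:26456453-26456702, minus strand: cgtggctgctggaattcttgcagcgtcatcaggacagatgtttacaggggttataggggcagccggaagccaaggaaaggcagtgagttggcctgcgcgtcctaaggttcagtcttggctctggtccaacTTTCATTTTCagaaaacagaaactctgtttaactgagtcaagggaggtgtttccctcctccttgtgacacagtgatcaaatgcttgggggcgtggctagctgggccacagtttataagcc
Isg15, chr4:156200819-156201068, minus strand: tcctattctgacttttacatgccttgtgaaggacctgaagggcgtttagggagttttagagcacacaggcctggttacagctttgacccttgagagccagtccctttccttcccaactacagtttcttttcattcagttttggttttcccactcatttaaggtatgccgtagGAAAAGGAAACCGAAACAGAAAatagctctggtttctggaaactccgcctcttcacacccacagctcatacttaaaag
Stat2, chr10:128270248-128270497, plus strand: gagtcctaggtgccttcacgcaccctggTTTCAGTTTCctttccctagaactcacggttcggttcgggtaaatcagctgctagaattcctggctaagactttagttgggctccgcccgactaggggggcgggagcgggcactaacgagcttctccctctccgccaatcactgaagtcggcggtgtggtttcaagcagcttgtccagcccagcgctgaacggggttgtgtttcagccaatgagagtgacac
Bst2, chr8:71537473-71537722, minus strand: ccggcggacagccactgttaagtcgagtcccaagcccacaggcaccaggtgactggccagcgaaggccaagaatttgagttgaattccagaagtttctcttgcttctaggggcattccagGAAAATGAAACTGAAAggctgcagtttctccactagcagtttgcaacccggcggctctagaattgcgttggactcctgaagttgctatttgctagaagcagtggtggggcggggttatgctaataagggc

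Ifit1 carries 2 separate matches centred 99 and 80 bases before the start, and Ifit3 has 2 at 151 and 117. In Isg15 a run of 3 overlapping matches lies 61 to 73 bases before the start, and Rsad2 has its match at 115. Bst2 has 2 overlapping matches at 125 and 119 and Stat2 has 1 at 217. Among members with a window, an ISRE match was found in 8 of the 15 that fell in both sexes, 1 of the 3 that passed in males and not in females (Oas3), and 4 of the 8 that passed in neither. The last 4 are Bst2, Stat2, Eif2ak2 and Ifitm3. The matches of Ddx58, Ifih1, Trim21, Eif2ak2 and Ifitm3 lie after the start.

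GAS was searched as TTC, any 3 bases, GAA, which reads the same on both strands. It occurred in 10 of 28 members, or 35.7%, and in 9.55% of all genes. The matches lay in 2 of the 15 genes that fell in both sexes (Ifit2 and Oas1a), in Irf1, and in 7 of the 8 that passed in neither (Irf8, Isg20, Ifi35, Bst2, Eif2ak2, Samhd1 and Ifitm3). Counted by window, since 5 of these genes have several annotated starts, that is 2 of 17, 1 of 4 and 7 of 11. This split by motif was noticed in the data and has no test. In Bst2 and Ifitm3 the GAS match overlaps an ISRE match. An NF-kB pattern (GGGA, any 4 bases, CC) occurred in 10 of 28 members (35.7%) and in 22.9% of all genes. The palindromic glucocorticoid response element (G, any base, ACA, any 3 bases, TGT, any base, C) occurred in 0 of 28 members and 0.537% of all genes. Such matches describe letters in a window and show no binding.

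**Figure D2:**
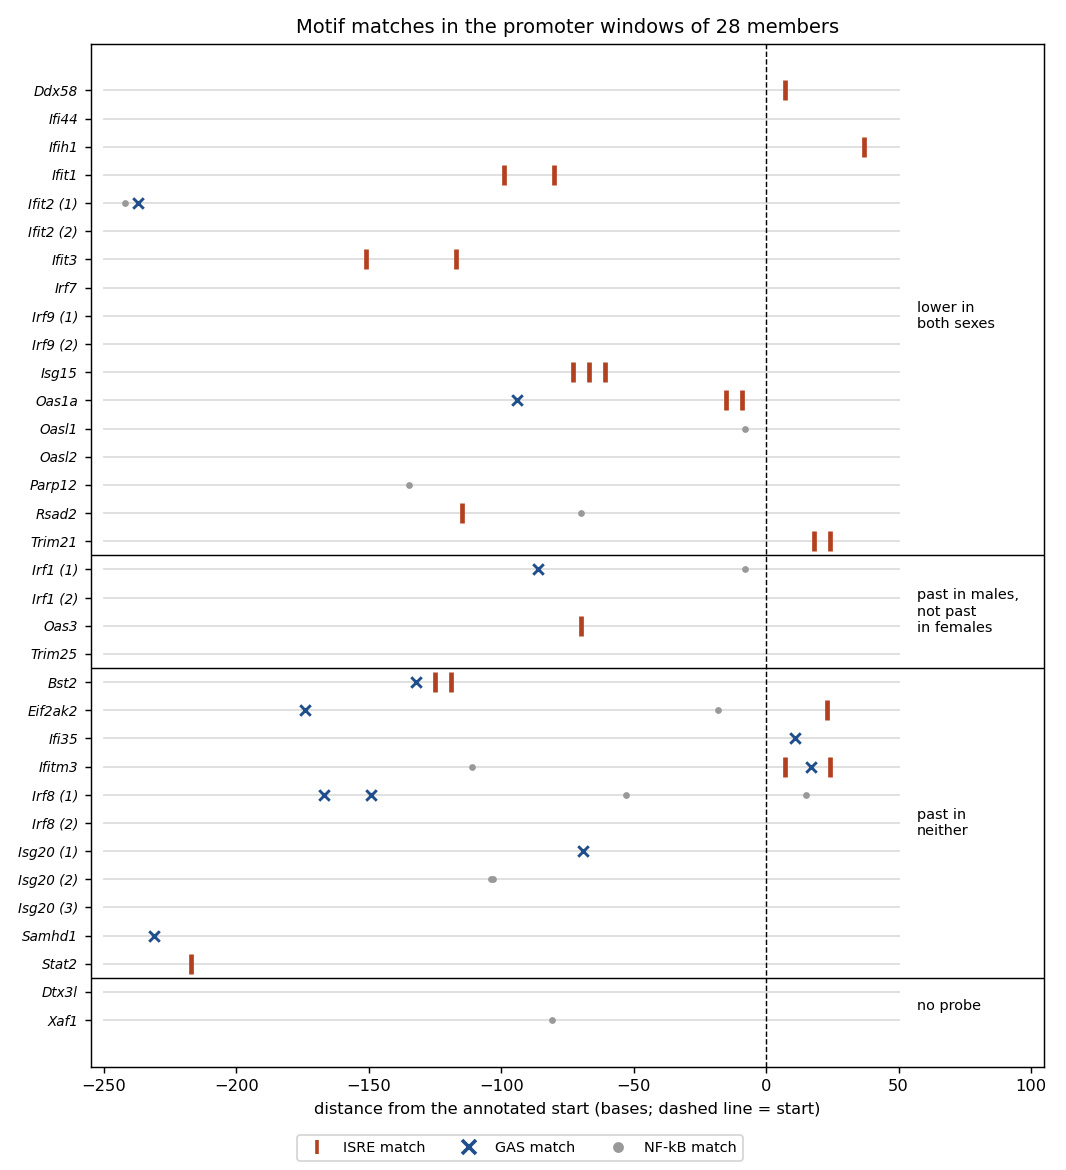
Positions of ISRE (red bars), GAS (blue crosses) and NF-kB (grey dots) matches in the windows of 28 members, drawn as distance in bases from the annotated start (dashed line), with several rows for a gene with several starts. Rows are grouped by the dexamethasone calls; blue crosses appear in 7 of the 8 genes past in neither sex and in 2 of the 15 lower in both.

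Among the Stat and Irf factors, Irf7, Irf9 and, in males, Irf1 fell, while Stat2 and Irf8 did not pass. In males 3 of 5 fell, and in females 2 of 5. Irf7 amplifies the response by driving further interferon and target genes. Its scaled signal was 1370, 1380 and 1530 in male vehicle livers and 558, 656 and 474 after dexamethasone. Female livers had 1660, 1940 and 1070 with vehicle and 816, 828 and 952 with dexamethasone. The groups did not overlap in either sex, and the log2 fold change was −1.35 ± 0.21 (SE, n = 3 per group, adjusted p = 0.0017) in males and −0.81 ± 0.21 (adjusted p = 0.0291) in females. Irf7 missed the threshold in females without female vehicle array 1 or 2 or female dexamethasone array 1 or 2 (adjusted p = 0.081 to 0.094).

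Irf1, an early transcription factor induced by interferon gamma and by NF-kB, had signals of 18600, 15700 and 11700 in male vehicle livers and 2840, 3120 and 6440 after dexamethasone. Its change in males was −1.97 ± 0.40 (adjusted p = 0.00633). In females the vehicle signals were 16100, 15300 and 16100 and the dexamethasone signals 11100, 10700 and 4090. All 3 treated females lay below all 3 control females, and animal 3 lay far below the other two. The female change of −1.01 ± 0.40 did not pass (adjusted p = 0.123). A second Irf1 probe gave −2.18 in males and −0.99 in females.

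Irf9, the DNA-binding part of ISGF3, had signals of 2270, 2490 and 2550 in male vehicle livers against 951, 778 and 2150 after dexamethasone. Male dexamethasone animal 3 was close to the controls. In females the values were 2130, 2970 and 2530 against 1200, 1330 and 846. The changes were −1.06 ± 0.33 (adjusted p = 0.0404) and −1.19 ± 0.33 (adjusted p = 0.037). A second Irf9 probe gave −1.39 in males (adjusted p = 0.0138 over probes) and −1.33 in females (0.0257). The calls of the first, brighter probe were marginal. The male call was lost without any male or female vehicle array except female vehicle 2, and without male dexamethasone 1 or 2 or female dexamethasone 1 (adjusted p = 0.0502 to 0.139). The female call was lost without any 1 of the 6 vehicle or 3 female dexamethasone arrays (0.0515 to 0.103). With slide as a block neither Irf9 call held (0.0512 in males and 0.101 in females).

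Stat2, the partner of Irf9, ranged from 3850 to 4070 in male vehicle livers and was 2340, 2800 and 3910 after dexamethasone (−0.41 ± 0.29, adjusted p = 0.356). In females it was 3460, 4140 and 5120 with vehicle and 3740, 3760 and 1770 with dexamethasone (−0.52 ± 0.29, adjusted p = 0.283). The groups overlapped in both sexes. Male dexamethasone animal 3 was the highest of its group for Stat2, Irf9 and Irf1, and female dexamethasone animal 3 was the lowest of its group for all 3 genes. Irf8, a factor of myeloid cells and B cells, gave −0.33 ± 0.15 in males (adjusted p = 0.144) and −0.11 ± 0.15 in females (adjusted p = 0.695). Its second, dimmer probe gave −0.44 (adjusted p = 0.0252) in males.

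Of the 5 cytosolic sensors, 4 fell in each sex and Eif2ak2 did not pass. Zbp1, a sensor of Z-form nucleic acid that starts necroptosis, had the largest loss of the list in females. Its signal was 4440, 5240 and 7170 in female vehicle livers and 441, 453 and 474 after dexamethasone. In males it was 2810, 2900 and 1520 with vehicle and 198, 374 and 391 with dexamethasone. No group overlapped. Zbp1 fell 12.1-fold in females (−3.59 ± 0.31, adjusted p = 0.000182) and 7.53-fold in males (−2.91 ± 0.31, adjusted p = 0.000309). Within slides it differed by −2.91 and −3.38 in males and by −3.53 and −3.28 in females.

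The RIG-I-like receptors fell by less. Ddx58, which encodes RIG-I, had signals of 761, 824 and 603 in male vehicle livers and 358, 391 and 296 after dexamethasone, without overlap (−1.06 ± 0.24, adjusted p = 0.00965). Females had 638, 708 and 899 against 437, 579 and 304 (−0.80 ± 0.24, adjusted p = 0.0478). The female call was lost when any array but female dexamethasone 2 was left out (adjusted p = 0.0531 to 0.144) and with slide as a block (0.0806). Its 3 other probes gave −0.91 to −1.35 in males and −0.95 to −1.38 in females. Dhx58, which encodes the regulatory receptor LGP2, fell by 0.92 in males (adjusted p = 0.00823) and by 1.03 in females (adjusted p = 0.008) on the log2 scale, in both sexes without overlap. Its second probe, above background on 7 of 12 arrays, gave −0.46 and 0.00. The average of both Dhx58 probes did not pass (adjusted p = 0.127 and 0.296).

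Ifih1, which encodes the long-RNA sensor MDA5, was tight in male vehicle livers at 2750 to 2800 and 1670 to 2080 after dexamethasone. Its changes were −0.60 ± 0.17 in males (adjusted p = 0.0265) and −0.66 ± 0.17 in females (adjusted p = 0.0264). The male call was lost without any 1 male vehicle array or male dexamethasone 2 or 3 (adjusted p = 0.0657 to 0.0844). The female call was lost without female vehicle 2 or female dexamethasone 1 or 2 (0.066 to 0.0851). With slide as a block neither Ifih1 call held (0.0682 and 0.0671). A second Ifih1 probe gave −0.90 in males (adjusted p = 0.00574 over probes) and −0.58 in females (0.0564). Eif2ak2, the RNA-dependent kinase PKR that halts translation, gave −0.24 ± 0.18 in males (adjusted p = 0.387) and −0.60 ± 0.18 in females (adjusted p = 0.0529). The female groups, 643 to 905 and 434 to 515, did not overlap. The female Eif2ak2 value passed in 4 of 23 alternative runs and not in the other 19. It passed without male dexamethasone 1 (adjusted p = 0.0489), with array weights (0.0285) and with capped normexp (0.0421). It also passed when only probes above background on all 12 arrays were kept (0.0448).

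All 5 genes of the oligoadenylate synthetase family fell in males and 3 of 5 fell in females. Oasl1, an OAS-like protein known to restrain Irf7 translation, had signals of 1680, 2320 and 2270 in male vehicle livers and 451, 344 and 304 after dexamethasone. In females it had 1210, 2680 and 1770 against 881, 663 and 360. The changes were −2.52 ± 0.35 (adjusted p = 0.00107) and −1.59 ± 0.35 (adjusted p = 0.0147). Oasl2, an OAS-like protein with synthetase activity, was tighter, at 1510, 1100 and 1230 against 419, 414 and 382 in males, and 1840, 2020 and 1370 against 833, 774 and 857 in females. It fell by 1.65 ± 0.17 (adjusted p = 0.000232) and by 1.07 ± 0.17 (adjusted p = 0.00304) on the log2 scale.

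Oas1a, a synthetase of the RNase L activator, fell by 1.17 ± 0.22 in males (adjusted p = 0.00395) and by 0.84 ± 0.22 in females (adjusted p = 0.0287). Treated females spanned 672 to 695 and treated males 289 to 417. The female Oas1a call was lost without female vehicle 1 or 2 or any 1 female dexamethasone array (adjusted p = 0.0596 to 0.0791). Oas2 gave −0.83 ± 0.23 in males (adjusted p = 0.0286) and −0.50 ± 0.23 in females (adjusted p = 0.191). The male Oas2 call was lost without male vehicle 1 or 2 or male dexamethasone 1 (0.0597 to 0.117) and with slide as a block (0.0855). Oas3, dim at 31.2 to 36.6 in male vehicle livers and 15.7 to 18.3 after dexamethasone, gave −1.04 ± 0.25 (adjusted p = 0.014) in males. In females Oas3 gave −0.75 ± 0.25 (adjusted p = 0.0724, and 0.0479 with slide as a block). Its male call was lost without male vehicle 1 (0.0542), with normexp (0.62, adjusted p = 0.505) and with capped normexp (−0.10, adjusted p = 0.616). The 5 family members had signals without overlap between treatments in both sexes, although Oas2 and Oas3 did not pass in females. The share of all genes without such overlap was not computed, so this count only describes the members.

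**Figure D3:**
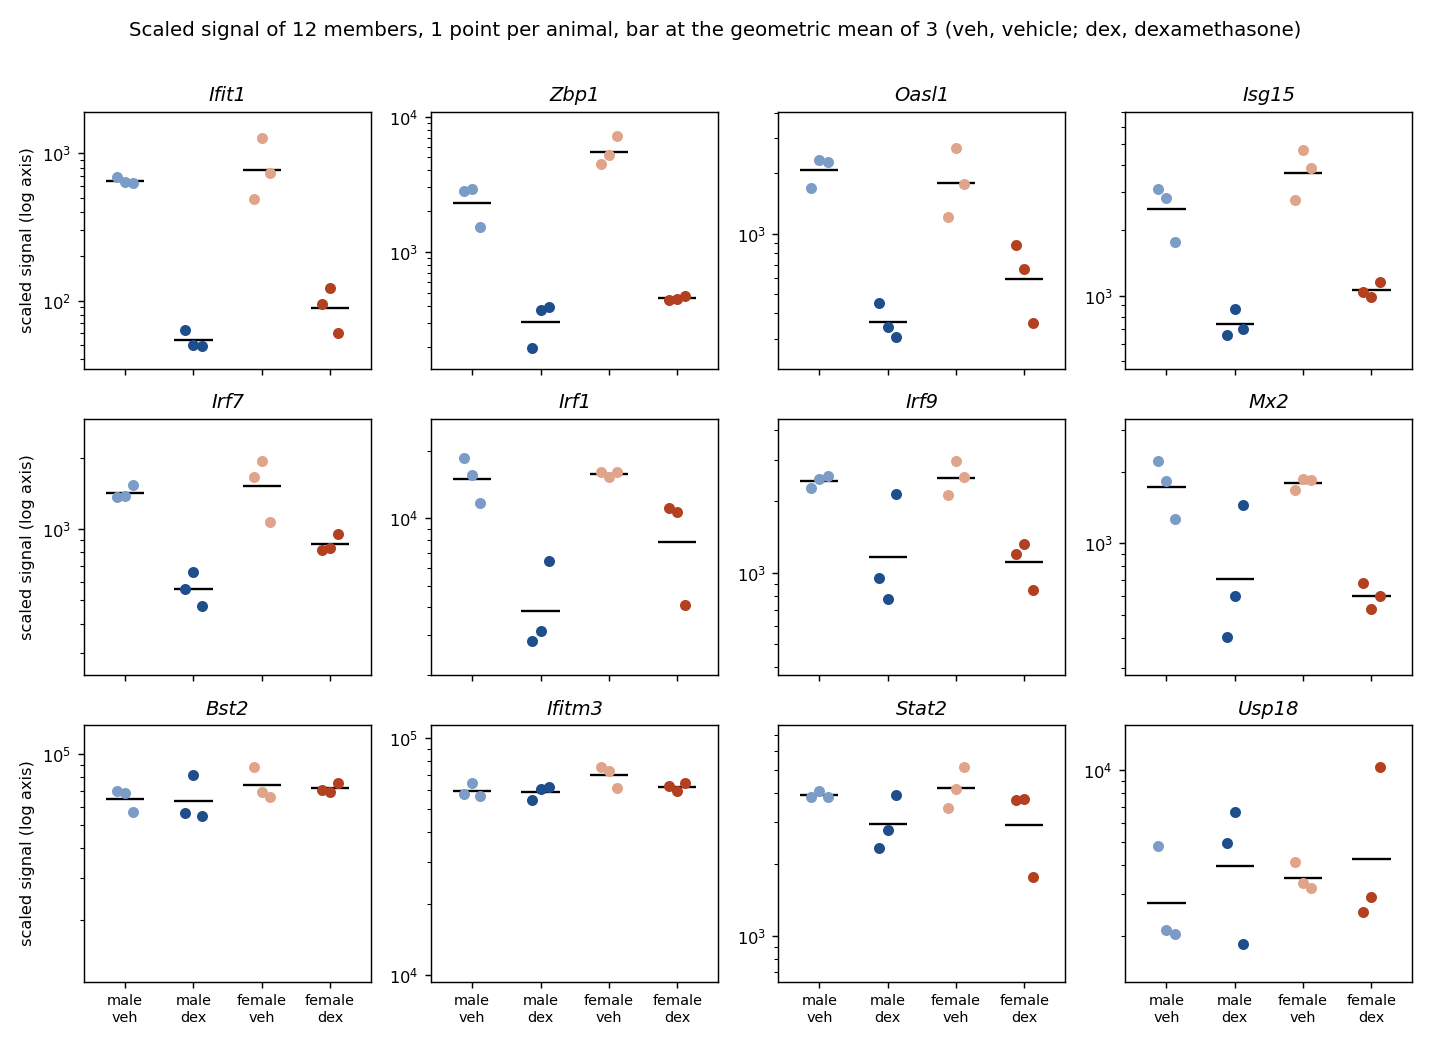
Scaled signal (log axis, linear intensity units) of 12 members in each animal of the 4 groups, with a bar at the geometric mean of 3 animals. Ifit1 runs from 493 to 1270 in vehicle livers and from 49.3 to 121 in dexamethasone livers, Bst2 and Ifitm3 are level across the groups, and Usp18 is set apart in female dexamethasone animal 3 at 10300.

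Among the antiviral effectors 7 of 12 fell in males and the same number in females. Ifit1, which binds viral RNA with an uncapped or unmethylated end, had the largest loss of the list in males. Its signal was 695, 638 and 631 in male vehicle livers and 63.5, 49.8 and 49.3 after dexamethasone, a 12.2-fold fall (−3.60 ± 0.33, adjusted p = 0.000146). Females had 493, 1270 and 740 against 95.1, 121 and 60.4, an 8.75-fold fall (−3.13 ± 0.33, adjusted p = 0.00041). The control females were spread over a 2.58-fold range and the control males over a 1.10-fold range, and in both sexes all treated animals lay far below. Within slides Ifit1 differed by −3.80 and −3.51 in males and by −3.40 and −2.70 in females. With normexp Ifit1 gave −2.03 in males (adjusted p = 0.0367) and −1.96 in females (adjusted p = 0.0562).

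Ifit3, a stabilizing partner of Ifit1, was 5400, 4460 and 3700 in male vehicle livers and 722, 896 and 561 after dexamethasone (−2.65 ± 0.20, adjusted p = 7.1e-05). In females it was 6070, 6940 and 5640 against 1370, 1410 and 1090 (−2.27 ± 0.20, adjusted p = 0.000202). A second probe named Ifit3 gave −2.55 and −2.33. The array design (mm7) places it on chromosome 19 at 34313887 to 34313946, and the first probe at 34289919 to 34289978. The mouse genome holds a near-identical copy, and which copy each probe reads was not settled. Ifit2, which restricts viral translation, was 194, 141 and 147 against 34.6, 35.9 and 37.0 in males (−2.15 ± 0.17, adjusted p = 8.64e-05). In females Ifit2 was 240, 207 and 174 against 86.3, 77.6 and 63.9 (−1.44 ± 0.17, adjusted p = 0.000839). Both Ifit2 calls ended with normexp, at −0.28 in males (adjusted p = 0.711) and −0.37 in females (adjusted p = 0.623); with capped normexp the male change was −0.90 (adjusted p = 0.000665).

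Rsad2 encodes viperin, a radical enzyme that makes a chain-terminating nucleotide. It fell by 2.38 ± 0.24 in males (adjusted p = 0.000232) and by 1.76 ± 0.24 in females (adjusted p = 0.00155). Its 3 probes gave −2.35 to −2.44 in males and −1.62 to −1.76 in females. Mx1, an antiviral GTPase gene that in C57BL/6 mice makes no functional protein, was 89.9, 64.5 and 54.8 in male vehicle livers and 5.88, 14.4 and 12.1 after dexamethasone. It fell by 2.76 ± 0.33 in males (adjusted p = 0.000552) and by 1.74 ± 0.33 in females (adjusted p = 0.0083). Mx1 was near background after dexamethasone, and its change was 0.08 in males and 0.12 in females with normexp, and −0.66 and −0.63 with capped normexp (adjusted p = 0.0177 and 0.0297). Ifi44, a cytoplasmic interferon-induced protein, fell by 1.45 ± 0.27 (adjusted p = 0.00395) and 1.23 ± 0.27 (adjusted p = 0.0135). Both Ifi44 calls ended with normexp, at −0.33 (adjusted p = 0.598) and −0.57 (adjusted p = 0.438); with capped normexp the male change was −0.83 (adjusted p = 0.0252).

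Mx2, the related GTPase gene, was 2230, 1830 and 1270 in male vehicle livers and 405, 603 and 1450 after dexamethasone. The male groups overlapped because of animal 3 (−1.29 ± 0.38, adjusted p = 0.0344). The female groups, 1680 to 1860 and 531 to 681, did not (−1.58 ± 0.38, adjusted p = 0.0218). The male Mx2 call was lost without male vehicle 1 or 2 or male dexamethasone 1 or 2 (adjusted p = 0.0877 to 0.125), and the female call without any 1 female vehicle array or female dexamethasone 2 (0.0532 to 0.0686). With slide as a block neither held (0.0614 and 0.0671).

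The effectors Bst2, Ifitm3, Ifi35, Isg20 and Samhd1, passed in neither sex. Bst2 encodes tetherin, which holds budding virions at the cell surface. Its signal was 69800, 68300 and 57100 in male vehicle livers and 56200, 81400 and 54800 after dexamethasone, and the changes were −0.04 in both sexes, with intervals from −0.43 to 0.35. Ifitm3, which blocks viral fusion in endosomes, was 57800, 64400 and 56800 against 54500, 61100 and 62300 in males. Its changes were −0.01 (95% confidence interval −0.28 to 0.26) and −0.16 (−0.43 to 0.11). A 2-fold fall lies outside these 4 intervals.

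Ifi35 was 4490 to 5060 in male vehicle livers and 5320 to 6650 after dexamethasone, higher without overlap but not past the threshold (0.25 ± 0.17, adjusted p = 0.331), and −0.01 ± 0.17 in females. Isg20, a 3′ exonuclease, gave 0.15 ± 0.35 in males (adjusted p = 0.808) and −0.60 ± 0.35 in females (adjusted p = 0.3), with male dexamethasone animal 3 at 1510 and the other two at 648 and 1000. Samhd1, a dNTP hydrolase, gave 0.51 ± 0.29 (adjusted p = 0.25) and 0.22 ± 0.29 (adjusted p = 0.688). A second Samhd1 probe gave 0.11 and −0.06.

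In the group of ISG15, its enzymes, ubiquitin ligases and PARP genes, 5 of 7 fell in males and 4 of 7 in females. Isg15, the ubiquitin-like modifier, was 3110, 2830 and 1770 in male vehicle livers and 658, 868 and 704 after dexamethasone. Female signals were 2770, 4670 and 3880 against 1040, 983 and 1150. The treatments did not overlap, and the falls were 3.39-fold in males (−1.76 ± 0.24, adjusted p = 0.000962) and 3.49-fold in females (−1.80 ± 0.24, adjusted p = 0.00143). The array design (mm7) places this Isg15 probe on chromosome 17, at 44534906 to 44534965, whereas RefSeq places the gene on chromosome 4; exon annotation of mm7 was not used here.

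Usp18, the protease that removes ISG15 and damps receptor signalling, went the other way without passing. Its signals were 4820, 2130 and 2040 in male vehicle livers and 4960, 6650 and 1860 after dexamethasone. In females they were 4110, 3360 and 3180 against 2520, 2920 and 10300. Treated animals lay both above and below the controls, and the changes of 0.52 ± 0.59 in males (adjusted p = 0.59) and 0.26 ± 0.59 in females (adjusted p = 0.824) had the widest errors of the list.

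Parp14, a mono-ADP-ribosyltransferase, was 9100, 8710 and 8260 in male vehicle livers and 3370, 3020 and 4360 after dexamethasone (−1.29 ± 0.17, adjusted p = 0.000911). In females it fell by 1.37 ± 0.17 (adjusted p = 0.00116). Parp12, which localizes to stress granules, fell by 0.94 ± 0.18 (adjusted p = 0.00497) and by 0.88 ± 0.18 (adjusted p = 0.011). Parp9, the partner of the ligase Dtx3l, did not pass at −0.53 ± 0.26 (adjusted p = 0.166) and −0.70 ± 0.26 (adjusted p = 0.0965), although its groups overlapped in neither sex. Trim21, an antibody receptor and ubiquitin ligase, fell by 1.37 ± 0.26 in males (adjusted p = 0.00474) and by 0.89 ± 0.26 in females (adjusted p = 0.0464). The female Trim21 call was lost when any array but female vehicle 3 or female dexamethasone 2 was left out (adjusted p = 0.0564 to 0.12) and with slide as a block (0.083).

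Trim25, the ligase that activates RIG-I, had probes that disagreed. The brighter probe (chromosome 11, 89128930 to 89128989 on mm7) was 17200, 17000 and 14100 in male vehicle livers and 7750, 9120 and 13800 after dexamethasone, and gave −0.69 ± 0.20 in males (adjusted p = 0.0334) and −0.65 ± 0.20 in females (adjusted p = 0.0592). The other probe (89126055 to 89126114) gave 0.83 in males (adjusted p = 0.0147 over probes) and 0.21 in females, and the average of both gave 0.07 in males. The direction for Trim25 therefore depends on the probe. Its male call was also lost without male vehicle 1 or 2 or male dexamethasone 1 or 2 (0.0933 to 0.112) and with slide as a block (0.064), and the female value passed without male dexamethasone 1 or 3 (0.0197 to 0.0457).

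Effects in males and females followed a similar order, and no member passed the test of the difference between them. Across the 34 genes the effects, which share no arrays between sexes, correlated at r = 0.91, and across all 19340 genes at 0.80; genes are not independent replicates. The female effect minus the male effect passed for 0 of 34 members, as for 0.00517% of all genes (1 gene). The lowest adjusted p was 0.796, for Ifit2 (0.71 ± 0.24), and the largest difference was that of Mx1 (1.02 ± 0.47, adjusted p = 0.947). At an unadjusted p under 0.05 it passed for 2 members, Ifit2 and Oasl2, and the share of all genes at that cut-off was not computed. All 5 OAS genes had a difference above zero (0.29 to 0.93), that is a smaller loss in females, and Zbp1 had −0.68 ± 0.44, a larger loss. Since Irf1, Oas2, Oas3 and Trim25 have differences of 0.96, 0.33, 0.29 and 0.04 that did not pass, their calls in males alone do not show a sex difference.

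**Figure D4:**
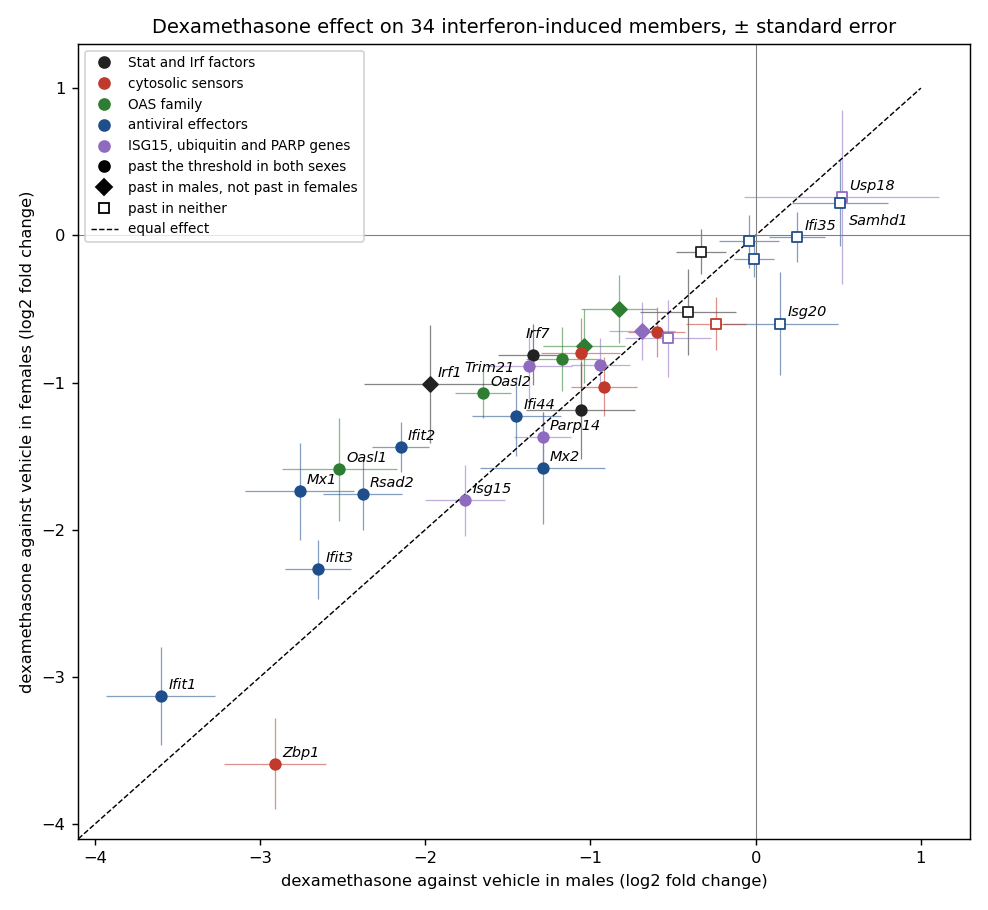
Log2 fold change of dexamethasone against vehicle in males (horizontal) and females (vertical) for the 34 members, with standard errors, coloured by role and shaped by the calls. Points follow the dashed line of equal effect from Ifit1 and Zbp1 at the lower left to Usp18 at the upper right, and the OAS genes lie above it.

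Under vehicle, 0 of 34 members differed between females and males by the test, against 1.97% of all genes. Of the members 30 of 34 were above zero, whereas 57% of all genes were below zero. The median was 0.20 for the members and −0.05 for all genes. At an unadjusted p under 0.05, 7 members passed, and the share of all genes at that cut-off was not computed. Zbp1 had the largest difference (1.25 ± 0.31, adjusted p = 0.0773): all control females, at 4440 to 7170, lay above all control males, at 1520 to 2900, and within the 3 slides it differed by 0.90, 1.55 and 1.31. Zbp1 passed without male dexamethasone 1 (adjusted p = 0.0445). All control males lay at position 1 of their slides, so position and sex cannot be told apart under vehicle.

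Under dexamethasone 6 members were higher in females, or 17.6%, against 5.81% of all genes called in either direction. They were Ifit2 (1.07 ± 0.17, adjusted p = 0.00685), Oasl2 (1.02 ± 0.17, adjusted p = 0.00704), Irf8 (0.67 ± 0.15, adjusted p = 0.029), Oas1a (0.93 ± 0.22, adjusted p = 0.0329), Ifit3 (0.85 ± 0.20, adjusted p = 0.0353) and Ifi44 (1.11 ± 0.27, adjusted p = 0.0375). For all 6 every treated female lay above every treated male, for Ifit2 at 63.9 to 86.3 against 34.6 to 37.0 and for Irf8 at 1990 to 2200 against 1220 to 1590. The median over the members was 0.41, against −0.05 for all genes. Slide 1 alone held both treated sexes, and there the 6 differed by 0.33 to 1.11. With slide as a block none of the 6 passed, at adjusted p = 0.0666 (Oasl2) to 0.221 (Irf8). The sex difference under dexamethasone minus that under vehicle is the difference of effects given above, which passed for 0 members.

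None of the 6 passed with normexp. With capped normexp 4 passed, and Ifit2 (0.18, adjusted p = 0.354) and Ifi44 (0.62, adjusted p = 0.137) did not. When 1 array was left out, Ifit2 and Oasl2 kept their call in all 12 cases. Irf8 lost it without male dexamethasone 1 or 3 or any 1 female dexamethasone array (0.0533 to 0.0979). Ifit3 lost it without male vehicle 2, female vehicle 1, male dexamethasone 1 or 3 or female dexamethasone 1 or 2 (0.0506 to 0.114). Oas1a lost it without male vehicle 2, male dexamethasone 1 or 3 or any 1 female dexamethasone array (0.0503 to 0.101), and Ifi44 without male vehicle 2 or 3, female vehicle 1, male dexamethasone 1 or 3 or female dexamethasone 1 or 2 (0.0525 to 0.123). Irf1 passed without female dexamethasone 3 (0.0265), Irf7 without female vehicle 3 (0.0415) and Oas3 without female dexamethasone 2 (0.0224).

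**Figure D5:**
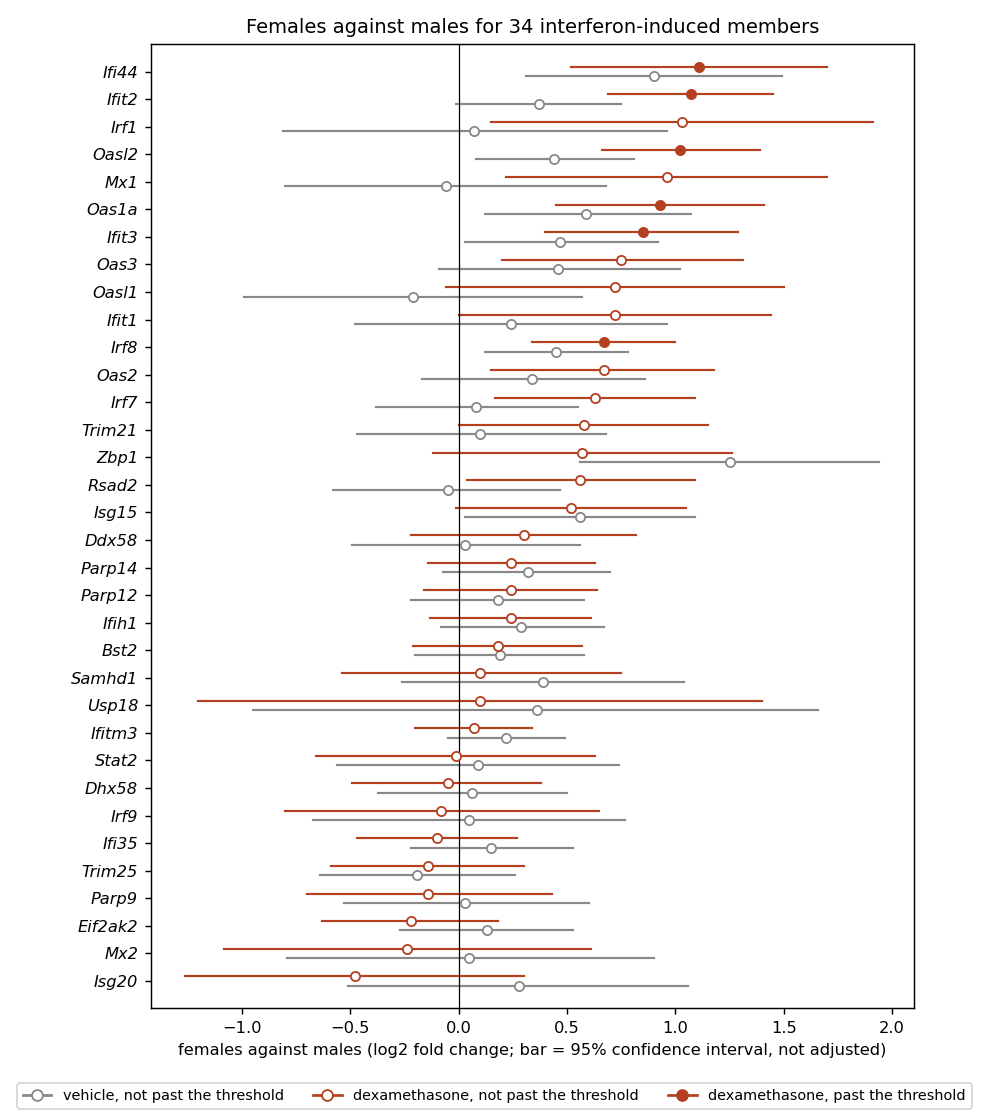
Log2 fold change of females against males for the 34 members under vehicle (grey) and dexamethasone (red), with 95% confidence intervals not adjusted for multiple testing, sorted by the difference under dexamethasone. Filled points, 6 under dexamethasone and 0 under vehicle, passed the threshold.

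The wider interferon pathway was described from lists written for this purpose, with earlier results of these data known. Of 10 ligand genes, 9 had a probe and 4 were tested. Ifng, the interferon of T and NK cells, had 42.0, 38.2 and 31.3 in male vehicle livers and 11.1, 11.2 and 15.6 after dexamethasone, where it was well above background on 1 of 3 arrays (−1.57 ± 0.41, adjusted p = 0.0204). It gave −1.29 ± 0.41 in females (adjusted p = 0.0615). Among 9 receptor and kinase genes 3 fell and 1 rose in males, and 4 fell and 0 rose in females. Of all genes tested, 12.1% fell and 10.4% rose in males, and 6.88% fell and 6.79% rose in females. The kinase genes Tyk2 (−0.88 and −1.0) and Jak2 (−0.88 and −0.54) and the receptor chain gene Il10rb (−0.84 and −0.60) fell in both sexes. The receptor chain genes Ifnar1 (−0.17 and −0.27) and Ifnar2 (−0.23 and −0.18) passed in neither.

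Of 13 further Stat, Irf and feedback genes 3 fell and 1 rose in males, and 4 fell and 0 rose in females. The shares of all genes were 12.1% lower and 10.4% higher in males, and 6.88% and 6.79% in females. No pathway list was tested against these shares. Irf5, an inflammatory factor of myeloid cells, fell by 1.35 in males (adjusted p = 0.0027) and by 1.69 in females (adjusted p = 0.00156). The phosphatase gene Ptpn6 (−0.62 and −0.52) also fell in both. Among 13 sensing adaptors and kinases 2 fell and 2 rose in males, and 0 fell and 2 rose in females. The 2 that rose were the same in both sexes: Ticam1, the adaptor of Toll-like receptor 3 (1.03, adjusted p = 0.00319; 0.70, adjusted p = 0.0295), and Tbk1, the kinase of Irf3 (0.56, adjusted p = 0.00722; 0.45, adjusted p = 0.0306).

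Of 26 other interferon-induced genes 22 were tested. In males 15 fell and 0 rose, and in females 12 fell and 0 rose, with medians of −0.82 and −0.68. Of all genes 12.1% fell in males and 6.88% in females. Cmpk2, the neighbour of Rsad2 that makes its nucleotide substrate, fell from 408, 330 and 278 to 46.8, 43.8 and 36 in males (−3.0 ± 0.19, adjusted p = 2.2e-05). In females it fell from 280, 358 and 252 to 64.7, 67.9 and 53.8 (−2.25 ± 0.19, adjusted p = 0.00016). Rtp4 (−1.90 and −1.37), the ISG15 conjugating enzyme gene Ube2l6 (−1.07 and −1.39), Trim30a (−1.26 and −1.07) and the necroptosis effector gene Mlkl, which acts downstream of Zbp1 (−0.83 and −1.45), fell in both sexes.

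Markers of other cell types were read on the same arrays. After dexamethasone 12.1% of all genes fell and 10.4% rose in males, and 6.88% fell and 6.79% rose in females. The marker counts below were not tested against these shares. The summed signal of 6 B-cell markers was 2150 to 3570 in male vehicle and 596 to 1440 in male dexamethasone livers, and 1900 to 5070 against 882 to 1770 in females; 3 of 5 tested markers fell in males and 2 in females. For 7 markers of plasmacytoid dendritic cells, a major source of type I interferon, it was 872 to 1510 against 401 to 578 in males and 712 to 1610 against 574 to 740 in females (2 of 6 fell in males, 0 in females). For 9 T and NK cell markers it was 719 to 947 against 594 to 728, and 901 to 1480 against 895 to 1050 (4 of 8 fell in males; 0 fell and 1 rose in females). For 8 Kupffer cell and macrophage markers it was 46800 to 77200 against 32000 to 43300, and 73500 to 113000 against 48400 to 94200 (1 of 8 fell in males, 0 in females). For 5 markers of monocytes and neutrophils it was 1300 to 3060 against 331 to 3430, and 2060 to 2450 against 630 to 2270 (2 of 5 fell in males, 0 in females). For 6 conventional dendritic cell markers it was 603 to 660 against 653 to 700, and 620 to 880 against 680 to 937 (1 of 5 fell and 1 rose in males; 0 fell and 1 rose in females).

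The hepatocyte sum was 974000 to 1040000 against 1140000 to 1380000 in males and 930000 to 1070000 against 1060000 to 1190000 in females, with 0 of 5 falling and 2 rising in males and 1 rising in females. That of 6 endothelial markers was 6690 to 8880 against 8990 to 12100, and 7710 to 10800 against 9630 to 21800, with 2 falling and 1 rising in males and 0 falling and 1 rising in females. Shares of all genes after dexamethasone were 12.1% lower and 10.4% higher in males, and 6.88% and 6.79% in females. No list had a marker below background on all 12 arrays. Under dexamethasone 3 of 8 tested T and NK cell markers (Cd3g, Gzma and Gzmb) were higher in females than in males. So were 1 of 8 macrophage markers (Csf1r), 1 of 5 markers of monocytes and neutrophils (Ccr2) and 2 of 5 conventional dendritic cell markers (Itgax and Zbtb46). Of the 6 endothelial markers 1 was higher, and 0 of the B-cell, plasmacytoid dendritic cell and hepatocyte markers were. Among all genes 3.27% were higher in females. The part of cell composition in any of these results was not tested.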

How the data were processed

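Liver RNA of 12 mice was measured on 1-colour arrays. Per the file headers, the deposited values are an intensity for each spot, read with Agilent Feature Extraction 9.5, whose processed signal is already background-subtracted; the series' value table holds the same numbers. Here the log2 signal was scaled to each array's 75th percentile, outlier spots were dropped, and a probe was kept where some group had it well above background on its 3 arrays (28842 of 41174). The brightest probe stood for a gene. limma 3.58.1 (R 4.3.3) fitted 4 group means to 12 arrays (8 residual degrees of freedom), giving 5 comparisons adjusted by Benjamini-Hochberg over 19340 genes at 0.05. Array number limits the precision. Promoter windows came from RefSeq (GRCm38.p6). Members and lists were chosen with earlier results of these data known. Each role group's 2 largest calls, members of opposite sign, and pathway genes called in both sexes were named, and every member is accounted for; some pathway genes are not reported here. Alternatives changed background correction, scaling, filter, probe choice, blocks, weights and samples. A further run on the series' value table used the same numbers and so repeated the main one.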

Additional observations from a re-analysis of the deposited data

How the results depend on the processing

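The count of members that fell in males, 24, became 11 after normexp background correction, and the females' 20 became 9; that correction put the median of all genes at 0.264 and 0.239 and the members' median in males at −0.73. Local background reached 11368 on male dexamethasone 1 and 20654 on female dexamethasone 3. With it capped at the 99th percentile, an alternative added after seeing the data, the counts were 23 and 22, and 4 for females against males under dexamethasone. Fitting the female groups alone gave 12. The 6 members higher in females under dexamethasone became 0 with normexp, 0 with slide as a block, 10 with array weights and 3 with these 2 groups alone. The shares of all genes called in the settings of this section are not reported here, so its counts describe the members only. The 0 members differing by sex under vehicle became 1 with probes averaged per gene (Irf8), with slide as a block (Ifi44), with array weights (Zbp1) and with capped normexp (Zbp1). Changes that reversed were Mx1 (0.08 in males and 0.12 in females) and Oas3 (0.62 in males) under normexp, and Trim25 (0.07 in males) with probes averaged. Beyond that cap, the cause was not tested. Leaving out 1 array gave 18 to 24 calls in males, 13 to 20 in females (13 without female vehicle array 2), 0 to 1 and 2 to 7 for the sex differences, and 0 for the difference of effects, which stayed 0 in every alternative run. The calls that held in every alternative run were 10 in males (Ifit1, Ifit3, Irf1, Irf7, Isg15, Oasl1, Oasl2, Parp14, Rsad2, Zbp1) and 6 in females (Ifit3, Isg15, Oasl2, Parp14, Rsad2, Zbp1). Whether the replicate numbers pair the animals is not known. Deviations of arrays with the same number correlated at −0.22 to 0.33 over 18 pairs, and 2 of 12 arrays were nearest to another of their number. With 3 animals in a group, these correlations cannot exclude a pairing. With the replicate block the counts were 20 in males, 16 in females, 0 for the difference of effects, and 0 and 5 for the sex differences. Signal near background limits Mx1, Oas3 and Ifng.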
